A study of Mus musculus with 8 samples.

Results

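The cytoplasmic ribosomal protein genes were followed in retinas of mice given MPTP or saline. Members were all probe sets annotated with a single gene symbol that is Rpl or Rps followed by a number, with an optional letter or the letter a and a digit, together with Rplp0, Rplp1, Rplp2 and Rpsa. Rps6k kinases and pseudogene symbols were left out, and each gene was represented by its brightest probe set (highest mean signal). This gave 60 genes of 19938 genes tested, 37 for proteins of the large subunit and 23 for proteins of the small subunit. All 60 symbols have an entry in the RefSeq gene table.

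The animals were male C57BL/6 mice, recorded as 6 weeks old at the start, and RNA came from retina. The 4 groups of 6 mice received saline or MPTP and were sampled at 1 week (7 days) or 4 weeks (28 days), and no genetic change is named for any group. Each array received RNA pooled from 4 retinas, with 2 arrays per group. Whether the pools came from separate mice is not stated, so p-values measure only the spread between these arrays. MPTP is a neurotoxin whose metabolite is taken up by dopamine neurons and blocks complex I in mitochondria. The sources used here give neither dose nor injection schedule.

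Cytoplasmic ribosomes translate the mRNAs of the nuclear genome. The small subunit holds the decoding site and the large subunit the peptidyl transferase centre, and each subunit is built from ribosomal RNA and a set of proteins made in near-equal amounts. Many mRNAs of these proteins begin with a tract of pyrimidines, through which mTOR signalling controls their translation, and several of the proteins have duties outside the ribosome. In the retina, photoreceptors make large amounts of protein each day to renew their outer segments.

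The retina label was borne out by its markers: the 17 measured photoreceptor markers averaged between 10.8 and 10.9 log2 units on every array, with Gnat1, the rod transducin subunit, between 12.4 and 12.6. Saline 1 week array 2 and MPTP 1 week array 1 stood apart from the other 6 arrays. On the first principal component of all genes, which held 38.3% of the variance, they scored 15.7 and 19.1, and the others lay between -9.39 and -0.391. MPTP 1 week array 2 carried the highest lens signal, a mean of 7.83 over 16 lens markers against 6.72 to 7.33 on the other arrays, with the lens protein gene Crygs at 9.71. It also had the highest mean over the 16 markers of the pigment epithelium and choroid, 7.65 against 7.19 to 7.49. The part of these array differences in the results below was not tested. In a pooled tissue, fewer cells of a type and less RNA per cell cannot be told apart.

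The ribosomal protein genes gave mostly bright signals, and 39 of the 60 lay above percentile 90 of the mean signal over all genes. Large subunit genes with the highest mean signals were Rpl4 (11.53 log2 units), Rpl10a (11.29) and Rpl21 (11.21). Among small subunit genes they were Rps4x, on the X chromosome, at 11.54, Rps6, the substrate of the S6 kinases, at 11.42, and Rps29 at 11.00. The lowest were the paralogs Rpl39l (4.98), Rpl3l (5.65) and Rpl10l (5.69) in the large subunit, which are known from testis, striated muscle and testis, respectively. In the small subunit they were Rps27l (7.01), Rps4l (7.36) and Rps19 (7.50). A signal depends on the probes as well as on the transcript, so these levels do not rank the amounts of mRNA.

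Replicate arrays were close for most members. The median gap between the 2 arrays of a group was 0.095 in saline 1 week, 0.079 in MPTP 1 week, 0.054 in saline 4 weeks and 0.073 in MPTP 4 weeks. The same gap over all genes was 0.14, 0.12, 0.078 and 0.095. The largest SD within groups belonged to Rpl10l (0.34), Rpl39l (0.23) and Rpl14 (0.18). The dim Rpl10l signal gave the widest single gap, 0.79 between the MPTP 4 weeks arrays.

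Both MPTP 1 week arrays carried the ribosomal protein genes at their highest. The mean deviation of the 60 genes from their own means was 0.084 and 0.106 on these arrays, and the deviation exceeded 0 for 50 genes on each. The saline 1 week arrays stood at 0.026 and -0.016. At 4 weeks the saline arrays stood at -0.039 and -0.078 and the MPTP arrays at -0.034 and -0.048. The 2 MPTP 1 week arrays held the highest value of 23 and 20 genes, and saline 4 weeks array 2 and MPTP 4 weeks array 1 held the lowest value of 20 and 18. All genes above percentile 90 of the mean signal, among which most members lie, deviated by 0.066 and 0.038 on the MPTP 1 week arrays and by -0.016 and 0.060 on the saline 1 week arrays. On the first principal component of the members alone, with 46.8% of their variance, the MPTP 1 week arrays scored 0.79 and 1.08 and the rest between -0.67 and 0.074.

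**Figure D1:**
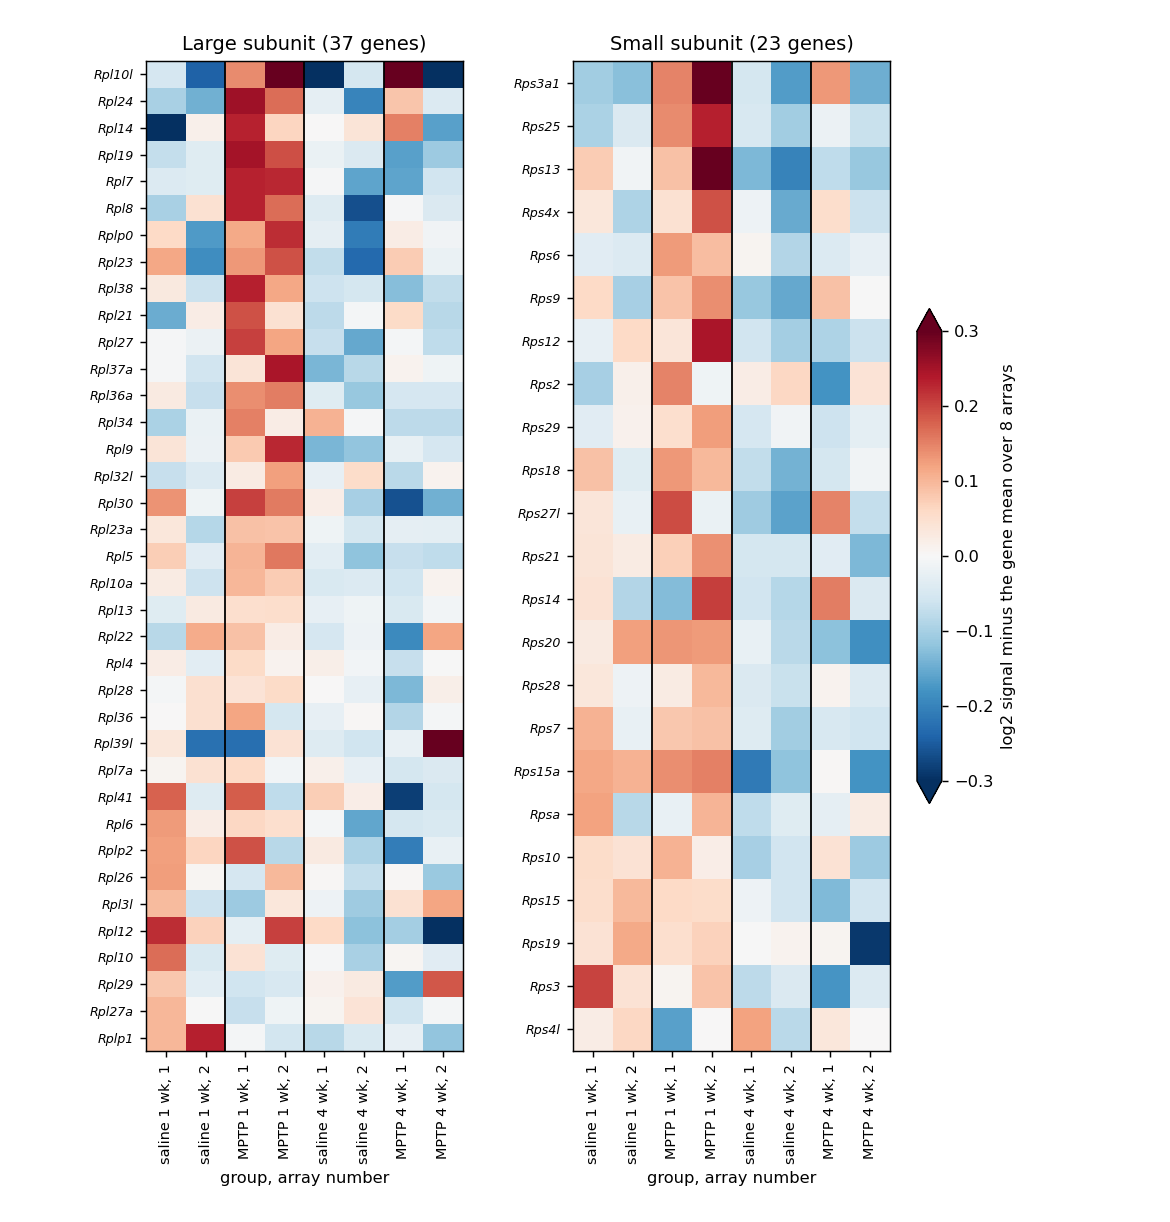
Log2 signal of each ribosomal protein gene minus its mean over the 8 arrays, one column per array and one line per gene, ordered by the log2 difference between MPTP and saline at 1 week; colours saturate at 0.3 and -0.3. The 2 MPTP 1 week columns are mostly red, with 50 of 60 genes above their own mean on each, and the 4 week columns are mostly blue.

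**Figure D2:**
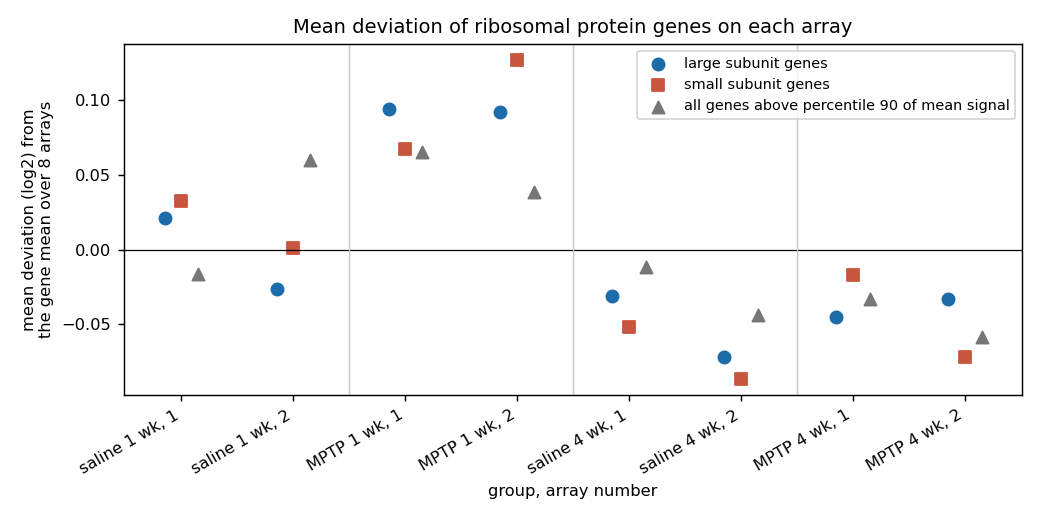
Mean deviation of the large subunit genes (circles), the small subunit genes (squares) and all genes above percentile 90 of the mean signal (triangles) from each gene's mean, per array, in log2 units. Both subunits are highest on the 2 MPTP 1 week arrays, between 0.068 and 0.127, while the triangles on 3 of the 4 arrays at 1 week lie between 0.038 and 0.066.

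The first comparison asked what differed between MPTP and saline retinas after 1 week. Of the 60 genes, 45 had a log2 difference (MPTP minus saline) above 0, with a median of 0.085, while 46.9% of all 19938 genes lay above 0 with a median of -0.0081. The large subunit had 26 of 37 genes above 0 (median 0.11) and the small subunit 19 of 23 (median 0.073). In 32 genes both MPTP arrays exceeded both saline arrays, and in 4 both were lower. The same was true of 12.5% and 13.8% of all genes. No gene passed the adjusted threshold of 0.05 in limma, and 0% of all genes were called. At an unadjusted p under 0.05, 5 members were higher and 0 lower, beside 1.87% and 2.36% of all genes. The differences are small: the quartiles of the 60 genes were 0.0031 and 0.17 on the log2 scale.

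Bright genes as a whole also leaned upward at 1 week, with 62.8% of the genes above percentile 90 higher in MPTP and a median of 0.028. Of these 1994 genes, 469 were higher and 201 lower without overlap. At an unadjusted p under 0.05 in limma, 69 of the 1994 genes above percentile 90 were higher and 25 lower. The 39 members in that range had a median of 0.11, with 31 above 0. The 21 dimmer members had a median of 0.056, with 14 above 0. Quantile normalization took the median of all 60 from 0.085 to 0.052, with 65% of them above 0 in place of 75%. Without the 2 arrays that stood apart, 1 array is left in each 1 week group, and the median was 0.077 with 68.3% above 0. Without saline 1 week array 2 alone the median was 0.054, and it was 0.057 in the large subunit and 0.052 in the small subunit.

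In the large subunit the second highest difference belonged to Rpl24, a protein that joins the subunit late in its assembly. Its signal was 9.94 and 9.89 in saline and 10.29 and 10.20 in MPTP, and the groups did not overlap. The difference was 0.33 ± 0.10 (SE of the limma fit, n = 2 arrays per group, as in all 1 week values), with an adjusted p of 0.9998. Rpl24 has 3 probe sets, with differences between 0.31 and 0.36. Rpl19, whose protein reaches across to the small subunit, measured 9.01 and 9.04 in saline against 9.33 and 9.27 in MPTP. The Rpl19 difference was 0.27 ± 0.08, and its 7 probe sets ranged from 0.12 to 0.34. Rpl7 followed at 9.16 and 9.16 against 9.43 and 9.42, a difference of 0.27 ± 0.09. In both genes the replicate arrays lay close together and the groups were apart.

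Rpl10l had the highest difference of all members, 0.45 ± 0.23, at a dim signal. Its arrays read 5.64 and 5.45 in saline and 5.83 and 6.15 in MPTP, without overlap but with wide gaps between replicates. Rpl14 read 6.37 and 6.73 in saline and 6.94 and 6.78 in MPTP, a difference of 0.31 ± 0.14. Its saline array 1 was the lowest of all 8 arrays, and without it the difference was 0.13.

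In the small subunit Rps3a1, a protein near the mRNA exit, was highest with 9.30 and 9.28 in saline against 9.55 and 9.72 in MPTP. That difference was 0.35 ± 0.11 without overlap. Rps25, known for its role in translation from internal entry sites of mRNAs, read 10.42 and 10.47 against 10.66 and 10.75, a difference of 0.26 ± 0.09. All 6 probe sets of Rps25 were above 0, from 0.26 to 0.33. Rps13 differed by 0.20 ± 0.11 and Rps4x by 0.15 ± 0.10, both without overlap. In Rps13 the distance came mainly from MPTP array 2, at 9.46 beside 9.17 on array 1 and 9.16 and 9.08 in saline, and without that array it was 0.054.

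Few members stood lower at 1 week. Rplp1, an acidic protein of the stalk that recruits elongation factors, read 9.31 and 9.45 in saline and 9.21 and 9.16 in MPTP, a difference of -0.20 ± 0.09 without overlap. Both its probe sets were below 0. Rpl27a (-0.09 ± 0.09) and Rpl29 (-0.08 ± 0.12) were the other large subunit genes without overlap. For Rpl27a this depends on the probe set: 8 of its 9 probe sets were above 0, up to 0.11. In the small subunit Rps4l, a paralog of Rps4x, stood at -0.12 ± 0.10 without overlap, yet its second probe set was at 0.16. Rpl10 (-0.06 ± 0.10), Rps3 (-0.08 ± 0.10), Rps19 (-0.02 ± 0.11) and Rps15 (-0.02 ± 0.08) overlapped between the groups.

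**Figure D3:**
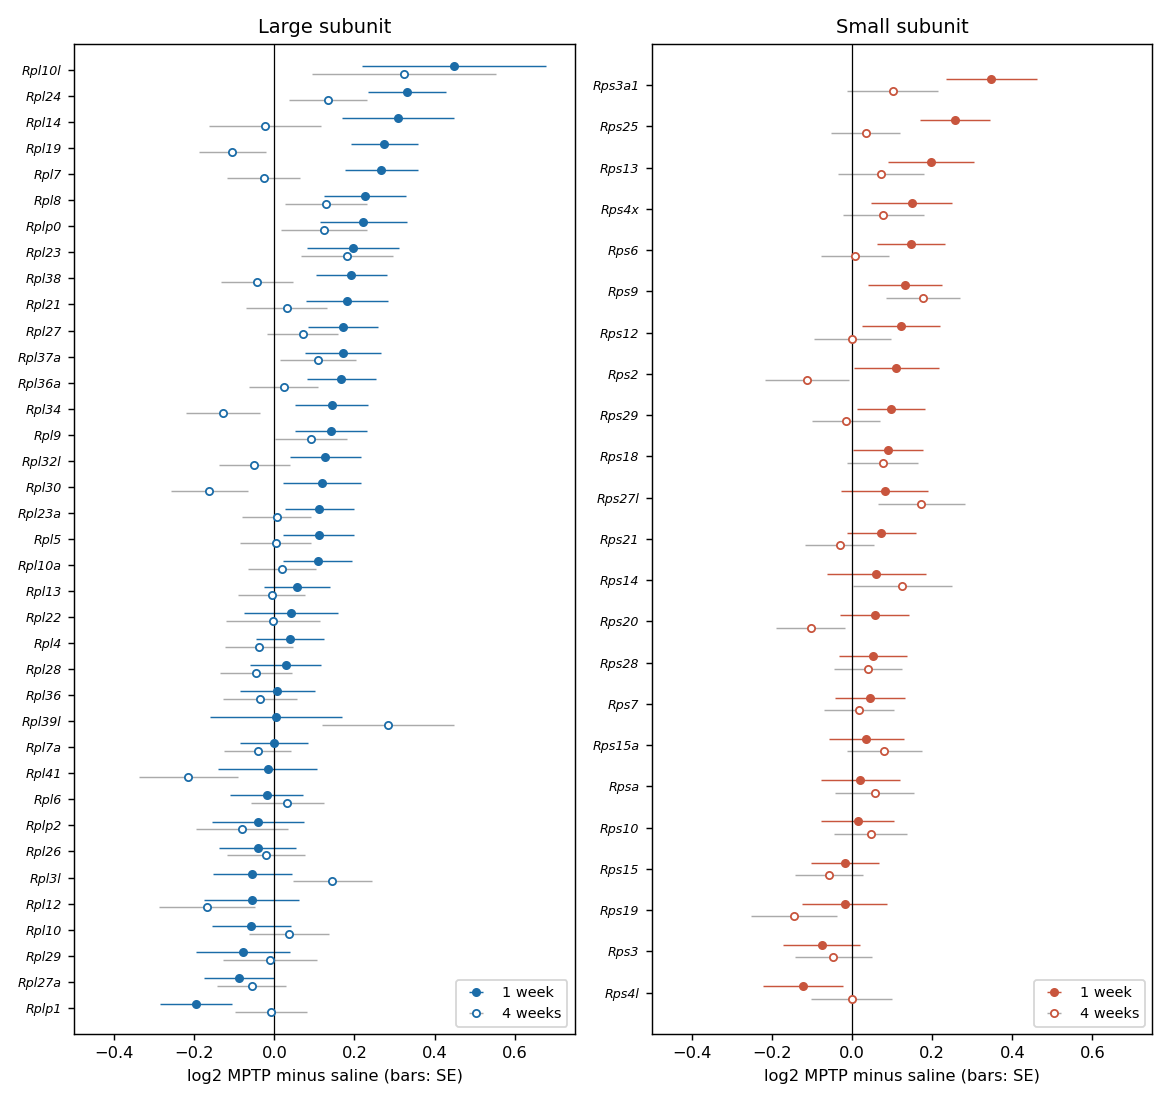
Log2 difference (MPTP minus saline) of each ribosomal protein gene at 1 week (filled) and at 4 weeks (open), with the standard error of the limma fit as bars. At 1 week 45 of 60 points lie to the right of 0, at 4 weeks 32 of 60.

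The start regions of these genes were looked at because so many members shared their highest arrays. RefSeq start windows (GRCm38.p6, 250 bases before to 50 after an annotated start) were given for 48 of the 60 genes, 57 windows in all. A C followed by further C or T to a total of at least 8 bases, on the gene's strand between 40 bases before and 20 after the start, was found in 26 of the 57 windows (45.6%) and in 19.0% of 32851 windows of all genes. The letters CGGAAG, on either strand of the 300 bases, were found in 36 of the 57 (63.2%) and in 16.9% of all windows. The reverse strand of this motif can overlap a pyrimidine run. The 60 bases around the start are shown for 3 genes among the highest at 1 week, for the lower Rpl27a and for Rps6. Capitals mark the run where one was found.
Rps3a1: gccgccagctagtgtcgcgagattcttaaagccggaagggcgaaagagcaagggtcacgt
Rpl24: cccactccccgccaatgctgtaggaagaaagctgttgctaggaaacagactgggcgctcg
Rpl19: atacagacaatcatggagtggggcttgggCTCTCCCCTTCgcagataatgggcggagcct
Rpl27a: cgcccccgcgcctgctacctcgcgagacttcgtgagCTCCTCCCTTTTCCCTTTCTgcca
Rps6: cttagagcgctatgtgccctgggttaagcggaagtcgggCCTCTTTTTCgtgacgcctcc

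These windows lie at chr3:86142649-86142708 on the minus strand for Rps3a1, chr16:55966235-55966294 on the plus strand for Rpl24 and chr11:98026884-98026943 on the plus strand for Rpl19. The Rpl27a window is chr7:109519155-109519214 on the plus strand, and the Rps6 window is chr4:86857348-86857407 on the minus strand. Each runs from 40 bases before an annotated start into the first bases of the transcript. Of the 5 highest members with a window at 1 week, Rpl14 (14 bases) and Rpl19 (11 bases) hold a run of this length. Rpl10l, Rps3a1 and Rpl24 hold none. Of the 3 lowest with a window, Rpl27a holds a run of 20 bases, and Rps3 and Rpl10 hold none. The chosen probe set of Rpl27a was below 0, while 8 of its 9 probe sets were above 0. Of the 48 genes, 22 of the 25 with a run were above 0 at 1 week with a median of 0.082, and 14 of the 23 with only shorter runs were above 0 with a median of 0.11. At 4 weeks 12 of the 25 were above 0 (median -0.0037) and 16 of the 23 (median 0.039). These differences between genes with and without a run were not tested. Among the 33 genes with CGGAAG the median was 0.053 with 23 above 0, and among the 15 without it 0.13 with 13 above 0. A match is a description of the letters and no evidence of a site in use.

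The second comparison asked the same after 4 weeks. Of the 60 genes, 32 were above 0 and the median was 0.0040, beside 0.0043 over all genes, of which 51.8% were above 0. With each array left out in turn the median ranged from -0.0078 (without saline 4 weeks array 2) to 0.025 (without saline 4 weeks array 1). The large subunit had 17 of 37 genes above 0 (median -0.0070) and the small subunit 15 of 23 (median 0.034). The small subunit median was 0.0065 without saline 4 weeks array 2, and the large subunit median was 0.011 without MPTP 4 weeks array 1. Both MPTP arrays exceeded both saline arrays in 13 genes, and both were lower in 8, beside 17.4% and 17.9% of all genes. No member had an unadjusted p under 0.05 in limma, beside 1.1% of all genes higher and 0.813% lower, and no gene was called at an adjusted p under 0.05. All genes above percentile 90 had a median of -0.019, with 40.1% above 0.

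The paralogs Rpl10l and Rpl39l had the highest differences at 4 weeks, with n = 2 arrays per group. Rpl10l read 5.26 and 5.64 in saline and 6.17 and 5.38 in MPTP, so the groups overlapped and the difference of 0.32 ± 0.23 was set by MPTP array 1 (-0.071 when it is left out). Rpl39l read 4.94 and 4.92 against 4.96 and 5.47, a difference of 0.28 ± 0.17 set by MPTP array 2 (0.026 when it is left out). Both are dim signals, in which 1 array sets the mean. Rpl3l differed by 0.14 ± 0.10 and Rps27l, the paralog of Rps27 known as a p53 target, by 0.17 ± 0.11, both without overlap.

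Among the brighter genes, Rpl23 read 10.46 and 10.30 in saline and 10.61 and 10.51 in MPTP, a difference of 0.18 ± 0.12. Rps9, near the mRNA entry of the small subunit, read 9.56 and 9.52 against 9.76 and 9.67, a difference of 0.18 ± 0.09. Neither gene overlapped between the groups at either time. Rps14 differed by 0.13 ± 0.12 and Rps3a1 by 0.10 ± 0.11, and Rps3a1 overlapped because its MPTP arrays read 9.54 and 9.26 beside 9.35 and 9.24.

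The lowest members at 4 weeks were Rpl41 (-0.22 ± 0.12), which encodes the smallest ribosomal protein, Rpl12 (-0.17 ± 0.12), at the base of the stalk, Rpl30 (-0.16 ± 0.10) and Rpl34 (-0.13 ± 0.09). Rpl41, Rpl30 and Rpl34 did not overlap between groups, while Rpl12 did. In the small subunit they were Rps19 (-0.15 ± 0.11), mutated in Diamond-Blackfan anaemia, Rps2 (-0.11 ± 0.11), Rps20 (-0.10 ± 0.09) and Rps15 (-0.06 ± 0.08). Rps19 read 7.49 and 7.51 in saline and 7.50 and 7.21 in MPTP, so its difference rests on 1 array, without which it was 0.0037. Of these 4 small subunit genes, Rps20 alone did not overlap.

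The 1 week and 4 week differences share no arrays. Of the 60 genes, 29 (48.3%) were above 0 at both times, against 26.8% of all genes, and 16 were above 0 at 1 week alone. Another 3 were above 0 at 4 weeks alone and 12 at neither time. Higher at both times without overlap were Rpl23, Rpl37a, Rpl9, Rplp0, Rps13, Rps18 and Rps9, while Rpl27a was lower at both times without overlap. These 7 genes (11.7%) and 1 gene (1.67%) stand beside 2.65% and 3.41% of all genes. Another 5 genes (8.33%) were higher without overlap at 1 week and lower without overlap at 4 weeks, beside 1.36% of all genes. Taken singly, 32 of the 60 were higher without overlap at 1 week, and 13 were higher and 8 lower at 4 weeks. The many higher genes at 1 week by themselves raise each share that includes them, also the 48.3%. These shares therefore do not show a link between the times, which was not tested.

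Over both times, with time as a term and 4 arrays against 4, 41 of the 60 genes were above 0 and the median was 0.045. All genes had a median of -0.0017. At an unadjusted p under 0.05 in limma, 9 members were higher and 0 lower, beside 2.3% and 2.47% of all genes, and no gene was called at an adjusted p under 0.05 (the smallest was 0.973). The 9 were Rpl10l (0.39 ± 0.16, n = 4 arrays per treatment), Rpl24 (0.23 ± 0.07), Rpl23 (0.19 ± 0.08), Rpl8 (0.18 ± 0.07), Rplp0, Rpl37a, Rps3a1 (0.22 ± 0.08), Rps9 (0.15 ± 0.06) and Rps25 (0.15 ± 0.07). Rps13 followed at 0.14 ± 0.07. In none of the 60 genes did all 4 MPTP arrays exceed all 4 saline arrays, and in Rpl27a all 4 were lower (-0.07 ± 0.06), beside 1.01% and 1.49% of all genes. At the low end stood Rpl41 (-0.12 ± 0.09), Rpl12 (-0.11 ± 0.08), Rplp1 (-0.10 ± 0.07), Rps19 (-0.08 ± 0.07), Rps4l and Rps3 (both -0.06) and Rps15 (-0.04 ± 0.06).

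The difference between the effects (4 weeks minus 1 week) was tested directly. It lay below 0 for 44 of the 60 genes, with a median of -0.076, while the median was 0.0079 over all genes and -0.047 over those above percentile 90. The share above 0 was 26.7% of the members, 29.1% of the genes above percentile 90 and 52.2% of all genes. By this share the members were close to bright genes as a whole. With quantile normalization the median was -0.039 and 45% of the members were above 0, in place of 26.7%. With each array left out in turn this share ranged from 15% (without saline 1 week array 1) to 36.7% (without MPTP 1 week array 2). No gene was called at an adjusted p under 0.05 in limma. At an unadjusted p under 0.05, 2 members were lower, Rpl19 (-0.38 ± 0.12) and Rpl7 (-0.29 ± 0.13), and 0 higher, beside 0.537% and 1.42% of all genes. Rpl19 read 9.06 and 9.03 in saline and 8.91 and 8.97 in MPTP at 4 weeks, the reverse order of its arrays at 1 week. This chosen probe set was the lowest of its 7 at 4 weeks, which ranged from -0.11 to 0.055 with 2 above 0. Rpl14 (-0.33 ± 0.20) and Rpl30 (-0.28 ± 0.14) came next in the large subunit. Rps3a1 (-0.25 ± 0.16), Rps25 and Rps2 (both -0.22) and Rps20 (-0.16 ± 0.12) were lowest in the small subunit. At the other end stood Rpl39l (0.28 ± 0.23), Rpl3l (0.20 ± 0.14), Rplp1 (0.19 ± 0.13) and Rps4l (0.12 ± 0.14).

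**Figure D4:**
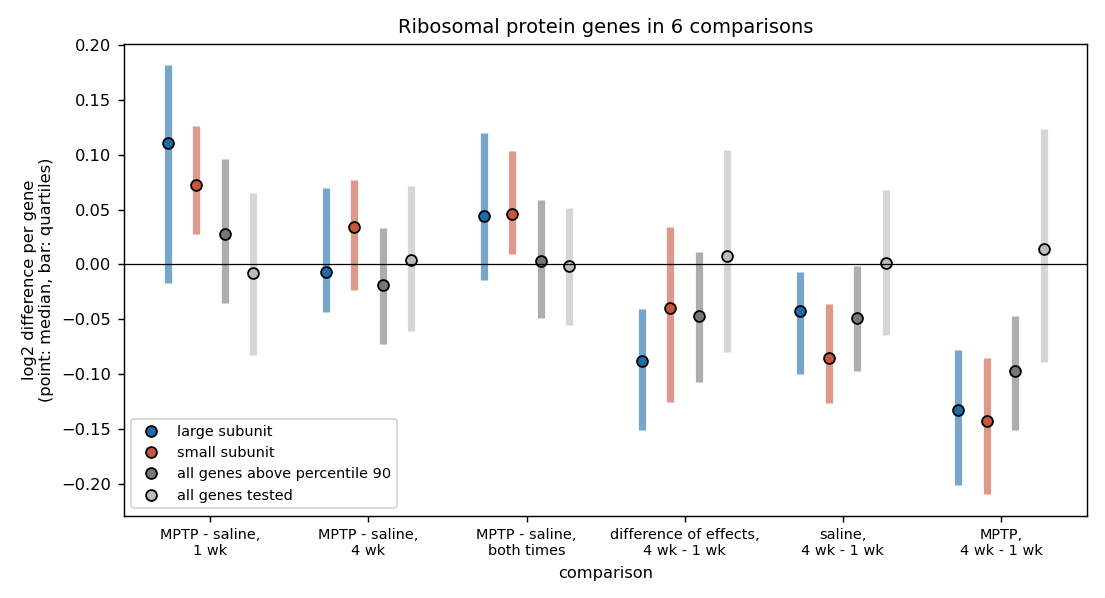
Median (point) and quartiles (bar) of the log2 differences of the large subunit genes, the small subunit genes, all genes above percentile 90 of the mean signal and all genes tested, in 6 comparisons. The ribosomal protein medians lie above those of the other genes at 1 week and below them in the MPTP groups from 1 to 4 weeks.

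Time itself was compared in each treatment. From 1 to 4 weeks in saline, 10 of the 60 genes were above 0 and the median was -0.063, beside 0.0012 over all genes and -0.049 over those above percentile 90. Both 4 week arrays were lower than both 1 week arrays in 22 genes and higher in 3, beside 15.1% and 12.7% of all genes. Bright genes leaned the same way: of the 1994 above percentile 90, 633 were lower and 72 higher without overlap. The small subunit had 2 of 23 genes above 0. Rps15a read 8.66 and 8.65 at 1 week and 8.33 and 8.43 at 4 weeks, a difference of -0.28 ± 0.09. Rplp1 stood at -0.23 ± 0.09, and these were the 2 members at an unadjusted p under 0.05 in limma, beside 1.25% of all genes lower and 0.873% higher. Rps13 (-0.20 ± 0.11) was next in the small subunit and Rpl12 (-0.18 ± 0.12) in the large, while Rpl14 (0.18 ± 0.14), Rpl34 (0.11 ± 0.09), Rps2 (0.08 ± 0.11) and Rps3a1 (0.00 ± 0.11) were at the upper end. Without saline 4 weeks array 2 the median was -0.041, and without saline 1 week array 1 36.7% were above 0. With quantile normalization the median was -0.012 and 41.7% of the members were above 0, in place of 16.7%.

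In the MPTP groups 6 of the 60 genes were above 0 from 1 to 4 weeks, with a median of -0.14. The median was 0.015 over all genes and -0.097 over those above percentile 90, of which 10.5% were above 0. Both 4 week arrays were lower in 38 members and higher in 2, beside 21.5% and 22.8% of all genes. Of the 1994 genes above percentile 90, 1046 were lower and 33 higher without overlap, so most of this lean was shared by bright genes. At an unadjusted p under 0.05 in limma, 13 members were lower and 0 higher, beside 4.36% and 5.43% of all genes. Among the 1994 genes above percentile 90, 158 were lower and 3 higher at that threshold. No gene was called at an adjusted p under 0.05, and the smallest among members was 0.507. Without MPTP 1 week array 1, 1 gene that is no member was called, the RNA gene Rny1 (-1.69, adjusted p = 0.0117 in limma). Rpl30 read 7.81 and 7.75 at 1 week and 7.34 and 7.46 at 4 weeks, a difference of -0.38 ± 0.10. Rpl19 followed at -0.36 ± 0.08, Rps13 at -0.33 ± 0.11 and Rps20 at -0.29 ± 0.09, and in these 4 genes every 4 week array lay below every 1 week array. The upper end held Rpl39l (0.33 ± 0.17), Rpl3l (0.12 ± 0.10), Rps4l (0.10 ± 0.10) and Rps14 (0.02 ± 0.12). With quantile normalization the median was -0.049 and 26.7% were above 0, in place of 10%. The saline and MPTP time differences are confounded with the age of the mice and with the time of sampling, which cannot be told apart.

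The large and the small subunit were also compared on each array. The mean deviation of large subunit genes minus that of small subunit genes ranged from -0.035 to 0.040 over the 8 arrays. It was -0.035 on MPTP 1 week array 2, where the small subunit stood higher, and 0.026 on MPTP 1 week array 1. The SD within groups of this quantity was 0.033, larger than its mean difference between MPTP and saline at 1 week (0.015) or at 4 weeks (-0.012). For the mean of all members per array the SD within groups was 0.022.

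Several probe sets report on most members. In all, 216 probe sets name a member alone, and 39 genes have more than 1, up to 14 for Rps12. Of these 39 genes, 26 had all probe sets above 0 at 1 week, 4 had all at or below 0 and 9 were mixed. Among the 216, 179 were above 0 at 1 week with a median of 0.11, and 129 were above 0 at 4 weeks with a median of 0.015. Ribosomal protein genes have many near-identical copies in the genome, and the 216 sets hold 204 distinct profiles, so probe sets of a gene are not independent and may read several copies. A further 235 probe sets name several genes including a ribosomal protein, and 16 symbols occur there only, among them Rpl3, Rpl11, Rpl39 and Rps27. Their median was 0.082 at 1 week, with 196 above 0, and -0.0042 at 4 weeks, with 111 above 0.

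**Figure D5:**
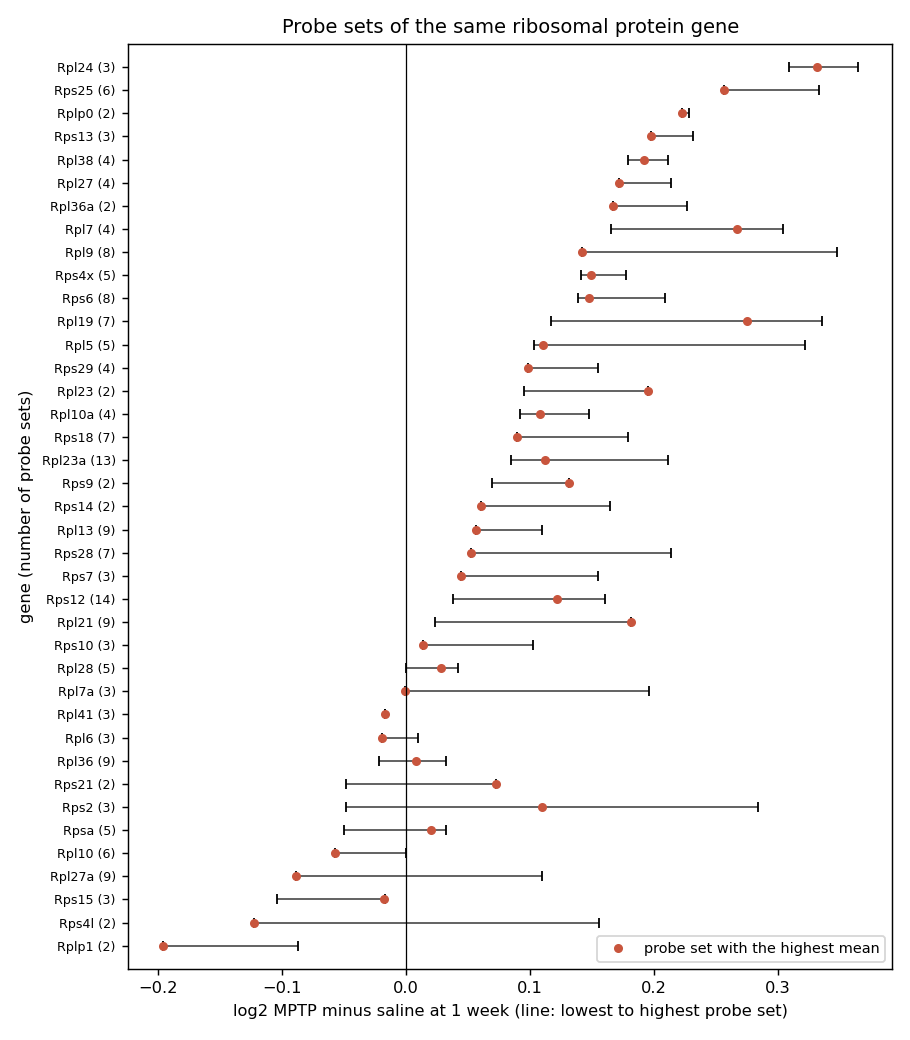
Log2 difference (MPTP minus saline) at 1 week of the probe set chosen for each gene (point) and the range over all probe sets of that gene (line), for the 39 genes with several. For 26 genes the whole range lies above 0, and the chosen probe set of Rpl27a lies at the low end of its range.

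The stalk that recruits elongation factors showed no common direction. Rplp0, its core, read 8.91 and 8.68 in saline and 8.97 and 9.07 in MPTP at 1 week, and 8.83 and 8.64 against 8.87 and 8.84 at 4 weeks. Its differences were 0.22 ± 0.11 and 0.12 ± 0.11, without overlap at either time. Without saline array 2 of the same time they were 0.11 and 0.033. Rplp1 stood lower at 1 week, as above, and at -0.01 ± 0.09 at 4 weeks. Rplp2 was at -0.04 ± 0.11 and -0.08 ± 0.11, with overlap at both times. The value of Rplp1 at 4 weeks is near 0 and was above 0 with quantile normalization (0.017).

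Members with known duties outside the ribosome lay in the same range as the rest. Rps6 read 11.39 and 11.38 in saline and 11.55 and 11.52 in MPTP at 1 week, a difference of 0.15 ± 0.08, and was at 0.01 ± 0.08 at 4 weeks, where quantile normalization gave -0.0040. Rpl5, which binds Mdm2 together with the 5S RNA, was at 0.11 ± 0.09 and at 0.0028 with the same error. Rpl38, needed for translation of Hox mRNAs, was at 0.19 ± 0.09 without overlap at 1 week and at -0.04 ± 0.09 at 4 weeks. Rpsa, also known as the laminin receptor, was at 0.02 ± 0.10 and 0.06 ± 0.10, and the first was below 0 with quantile normalization (-0.014). Rpl22, an RNA-binding member, read 8.36, 8.55, 8.53 and 8.46 on the saline and MPTP arrays at 1 week, a difference of 0.04 ± 0.12. Rpl10, near the peptidyl transferase centre, stood at 0.04 ± 0.10 at 4 weeks. Rps6, Rpl5 and Rpl38 shared the higher values on both MPTP 1 week arrays, and none of the genes in this group was called at an adjusted p under 0.05. Rpl11 and Rps27a have no probe set of their own here.

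Paralogs that can replace a common member are given beside it. At 1 week Rpl10l was at 0.45 ± 0.23 and Rpl10 at -0.06 ± 0.10, and Rps4l was at -0.12 ± 0.10 and Rps4x at 0.15 ± 0.10. The sign of Rps4l depends on the probe set: its other one was at 0.16, and the mean of its probe sets gave 0.016. Rpl3l (-0.06 ± 0.10), Rpl39l (0.0044, with an SE of 0.17) and Rps27l (0.08 ± 0.11) have no partner with a probe set of its own. At 4 weeks Rps4l stood at -0.0012 with an SE of 0.10 and Rps4x at 0.08 ± 0.10. The difference between a paralog and its partner was not tested.

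Fau, whose product is cut into a ubiquitin-like protein and a small subunit protein and whose name the rule misses, differed by 0.18 ± 0.09 at 1 week and by the same at 4 weeks. Rpl7l1, a relative of Rpl7, was at 0.05 ± 0.11 and -0.02 ± 0.11. Among 17 other mRNAs known for a pyrimidine tract at their start, 15 were above 0 at 1 week, with a median of 0.12, and 10 at 4 weeks, with a median of 0.010. Naca, a subunit of the complex that binds nascent chains (0.27 ± 0.10), and Eif3f, an initiation factor subunit (0.25 ± 0.11), had the smallest p in that list, and they were its 2 members at an unadjusted p under 0.05 in limma. Mitochondrial ribosomal proteins, a list taken by name, had 53 of 77 genes above 0 at 1 week (median 0.042) and 42 of 77 at 4 weeks (median 0.0048). At an unadjusted p under 0.05 in limma, 8 of the 77 were higher and 0 lower at 1 week, beside 1.87% and 2.36% of all genes. At 4 weeks 2 were higher and 2 lower, beside 1.1% and 0.813% of all genes.

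The machinery that makes and uses ribosomes was described in the same way, with no test between lists. Of 14 genes of RNA polymerase I, which transcribes ribosomal RNA, 12 were above 0 at 1 week (median 0.094), led by Taf1a (0.31 ± 0.11) and the initiation factor Rrn3 (0.21 ± 0.10), and 7 at 4 weeks. Of 78 ribosome biogenesis factors, 42 were above 0 at 1 week (median 0.0061). Nip7 (0.38 ± 0.12) and Nop10 (0.29 ± 0.12) were the 2 at an unadjusted p under 0.05 in limma, both higher. Over all genes 1.87% were higher and 2.36% lower at that threshold. At 4 weeks 25 of the 78 were above 0 (median -0.049), with Wdr43 at -0.20 ± 0.10. Initiation factors had 19 of 35 above 0 at 1 week (median 0.017) and 15 at 4 weeks. At 1 week 3 of the 35 were higher and 0 lower at an unadjusted p under 0.05 in limma, beside the same shares of all genes. Elongation factors had 6 of 11 above 0 at each time.

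Regulators of translation and of the ribosome stress response had lower medians than the members at 1 week. Growth and mTOR genes had 13 of 20 above 0 (median 0.031), led by Pdcd4 (0.14 ± 0.10), an inhibitor of the helicase Eif4a, and Ddit4 (0.10 ± 0.09), an inhibitor of mTOR complex 1. At 4 weeks 8 of the 20 were above 0. Of 15 genes of the p53 and ribosome stress response, 8 were above 0 at 1 week and 5 at 4 weeks, with Btg2 at 0.23 ± 0.09 and Zmat3 at -0.31 ± 0.14 at 1 week. Protein folding and targeting genes at the ribosome had 9 of 16 above 0 at 1 week and 11 at 4 weeks. No gene of these lists was called at an adjusted p under 0.05.

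Marker lists of other cells were set beside these values. At 1 week 15 of 16 lens markers were above 0 with a median of 0.12. In 1 of the 16 both MPTP arrays exceeded both saline arrays, and in 0 both were lower. The same was true of 12.5% and 13.8% of all genes. The lens mean was 6.72 on MPTP array 1, the lowest of the 8 arrays, and 7.83 on MPTP array 2, the highest. The ribosomal protein deviation was 0.084 and 0.106 on these arrays. Whether the lens values relate to the ribosomal ones was not tested. Photoreceptor markers had 12 of 17 above 0 with a median of 0.019, and markers of other retinal neurons and glia 10 of 21 with a median of -0.043. Pigment epithelium and choroid markers had 8 of 16 above 0, blood, vessel and microglia markers 8 of 17, and cornea and conjunctiva markers 3 of 11.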

How the data were processed

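The deposited values are log2 signals that the authors made with RMA in Affymetrix Expression Console, as recorded without versions in the submitters' processing notes. RMA normalizes the arrays together, so a shift shared by all genes cannot be read from these values. Differences between whole arrays remain. Over the genes tested the array medians ran from 6.95 to 7.02. The distance between the quartiles was 1.90 on saline 1 week array 2 and 1.92 on MPTP 1 week array 1. On the other arrays it was 1.65 to 1.74. Of 28944 probe sets, 23410 carry an annotation and 21789 name 1 gene, and the probe set with the highest mean was kept for each of 19938 genes, with no filter on dim signals. For arrays, their number limits the precision.

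Each gene was fitted with limma 3.58.1 in R 4.3.3 (two-sided), with a mean per group over 8 arrays (4 residual degrees of freedom) or with additive time and treatment terms for both times (5). Benjamini-Hochberg adjustment ran over all 19938 genes, with a threshold of 0.05. The code was tested on simulated data. Lists are described by counts and medians without a test. Python 3.11.15 with matplotlib 3.10.9 made the figures.

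The members and lists were chosen with earlier results of these data known, and the list of mitochondrial ribosomal proteins was added after the files were read. Named genes are, per MPTP comparison and subunit, the 4 highest and 4 lowest, per time comparison the 2 highest and 2 lowest, any at an adjusted p under 0.05, a fixed set of members with known other duties and of paralogs, the 3 brightest and 3 dimmest per subunit, the 3 most variable, and in other lists the 2 with the smallest p. Other members named (Rpl7, Rpl37a, Rpl9, Rps18 and those given beside a count of 9 or fewer) were chosen after their values were seen.

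Array numbers were checked as pairs: correlations of the deviations of same-numbered arrays ran from -0.383 to 0.207, so the numbers were not taken to pair the arrays. Alternatives were 3 normalizations, filters on signal, other uses of the probe sets, other variance settings, fits of fewer arrays, the array number as a block and other member rules. Exchanged array numbers as a block and scaling to the genes above percentile 90 were chosen after seeing the data.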

Additional observations from a re-analysis of the deposited data

How the results depend on the processing

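Of 2106 values of named genes under an alternative, 2032 kept their direction, none crossed the adjusted threshold of 0.05 and 74 changed sign, and the cause of the changes was not tested. No gene passed the adjusted threshold in any comparison and alternative run, except the RNA gene Rny1, which is no member, in the MPTP groups from 1 to 4 weeks without the 2 arrays that stood apart or without MPTP 1 week array 1.

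The array number as a replicate block left the median at 1 week at 0.085 and 75% of the members above 0, as did the block with exchanged numbers at 1 week, chosen after seeing the data, and neither made a call. Because the block leaves group means as they are, it says nothing more about these medians.

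The median at 1 week was 0.052 with quantile normalization, 0.056 with cyclic loess, 0.055 with scaling to the genes above percentile 90 (chosen after seeing the data), and 0.11 with those genes alone or with every probe set. The mean of the members over the arrays, MPTP minus saline at 1 week, was 0.059, 0.063 and 0.060 in the first 3, against 0.090. For the difference of the effects the 3 gave medians of -0.039, -0.035 and -0.028 with 45%, 41.7% and 41.7% above 0, centring on array medians gave -0.10, and every probe set gave 15.7% above 0. From 1 to 4 weeks in saline they gave medians of -0.012, -0.020 and -0.014, means of -0.024, -0.024 and -0.013, and 41.7%, 43.3% and 45% above 0. There every probe set gave 8.80%, the mean of probe sets per gene 10%, and leaving out the arrays that stood apart a median of -0.088. In the MPTP groups over time the 3 gave medians of -0.049, -0.043 and -0.043 with 26.7%, 30% and 31.7% above 0, centring gave -0.18, every probe set 2.78%, genes above percentile 90 alone 2.56% and members without paralogs 5.45%.

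With each array left out in turn, the median ranged from 0.054 to 0.11 at 1 week, from -0.091 to -0.052 for the difference of the effects (15.0% to 36.7% above 0) and from -0.088 to -0.041 in saline over time (16.7% to 36.7% above 0). The count called in the MPTP groups over time ranged from 0 to 1.

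Signs changed at 1 week for Rpsa (-0.014 quantile, -0.011 loess, -0.0097 scaled, -0.0052 mean of probe sets), Rpl39l (-0.026 scaled), and Rpl27a (0.055) and Rps4l (0.016) with the mean of probe sets. At 4 weeks they changed for Rplp1 (0.017, 0.013 and 0.0097 under the same 3 normalizations), Rpl22 (0.024, 0.025 and 0.014), Rps4l (0.0080, 0.0046 and 0.017, and 0.056 with the mean of probe sets), Rps6 (-0.0040 quantile, -0.0010 loess, -0.011 centred) and Rpl5 (-0.011 quantile, -0.015 centred). Over both times the mean of probe sets gave Rpl27a 0.00078 and Rps4l 0.036, and over time Rps2 -0.060 in saline and Rps14 -0.091 in MPTP. Centring gave Rps3a1 -0.0087 in saline and Rps14 -0.025 in MPTP over time. Without the arrays that stood apart, Rps19 was at 0.025, Rps15 at 0.0024, Rpsa at -0.020 and Rps27l at -0.055 at 1 week, Rps14 at -0.038 in the difference of the effects and -0.15 in MPTP over time, and Rps3a1 at -0.0065 in saline over time.

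Leaving out 1 array changed the sign of members near 0. At 1 week the ranges were -0.16 to 0.050 (Rpl10), -0.15 to 0.0035 (Rps3), -0.054 to 0.016 (Rps19), -0.041 to 0.0051 (Rps15), -0.18 to 0.096 (Rplp2), -0.082 to 0.12 (Rpsa), -0.056 to 0.14 (Rpl22), -0.13 to 0.023 (Rpl3l), -0.13 to 0.14 (Rpl39l) and -0.026 to 0.19 (Rps27l). At 4 weeks they were -0.071 to 0.72 (Rpl10l), -0.29 to 0.0037 (Rps19), -0.038 to 0.24 (Rps3a1), -0.055 to 0.039 (Rplp1), -0.17 to 0.011 (Rplp2), -0.042 to 0.056 (Rps6), -0.042 to 0.047 (Rpl5), -0.011 to 0.083 (Rpl10), -0.16 to 0.15 (Rpl22) and -0.10 to 0.099 (Rps4l). For the difference of the effects they were -0.014 to 0.20 (Rpl10), -0.034 to 0.13 (Rps9), -0.10 to 0.23 (Rps14) and -0.019 to 0.20 (Rps27l), and over time -0.053 to 0.062 (Rps3a1, saline) and -0.15 to 0.19 (Rps14, MPTP). Leaving out 1 array moved the value by over 1.5 times for 20 of the 26 members tried at 1 week, the others being Rpl19, Rpl24, Rpl38, Rps25, Rps3a1 and Rps6, and for 24 of 27 at 4 weeks, the others being Rpl3l, Rps20 and Rps9. Of all 60 members, 27 at 1 week and 40 at 4 weeks had a log2 difference smaller than its own SE.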
